A study of Mus musculus with 18 samples.

Results

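Gene expression after withdrawal of doxycycline was compared with vehicle treatment in 12 of the 18 mouse melanoma allografts of the series. The 6 tumours whose titles give NRAS off for 4 days, called NRAS-off tumours here, were set against the 6 vehicle tumours, over every gene on the array. All tumours grew from iNRAS-475, a single mouse melanoma line whose NRAS oncogene is expressed while doxycycline is given. The cells were placed intradermally in nude mice, hosts that lack mature T cells but keep macrophages, NK cells and B cells. All mice drank 2 mg/ml doxycycline until tumours measured 200 to 500 mm3, after 6 weeks. One group then had vehicle with doxycycline continued as far as the labels say, and in the NRAS-off group doxycycline was stopped. The remaining 6 tumours had 4 days of AZD6244 at 100 mg/kg, a drug that blocks MEK1 and MEK2, and enter only where a difference from them was tested. The labels give no allele beyond the name of the line, do not say whether NRAS-off mice also had vehicle, and do not give the sex or age of the mice. What the drug's absence does by itself and what loss of the oncogene does cannot be told apart in this design.

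RAS proteins are membrane switches that, when bound to GTP, turn on the RAF, MEK and ERK kinase cascade and other routes such as PI3K. ERK drives transcription of growth genes and of its own brakes, the dual specificity phosphatases and the Sprouty proteins. In melanoma, oncogenic NRAS holds this signal on without a growth factor. A piece of such a tumour holds melanoma cells together with host macrophages, fibroblasts, vessels and muscle, and since the cells and the hosts are both mouse, one array reads all of them.

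RNA from each tumour was hybridised to 1 Affymetrix array in one colour, and precision is limited by how many arrays there are. The table had 45037 probe sets covering 18193 genes, and the array medians ranged from 72.3 to 78.5 intensity units. A gene was read by the strongest of its probe sets on average, and 15005 genes with a mean above 23.5 intensity units, the 25th percentile of all probe sets, were tested. Pairs of vehicle tumours correlated at 0.987 to 0.996 and pairs of NRAS-off tumours at 0.978 to 0.996. NRAS-off replicate 2 stood apart: its mean correlation with its group was 0.981, against 0.988 to 0.990 for the other 5. The summed intensity of 10 keratinocyte markers was 28634 in this tumour and at most 838 in the other NRAS-off tumours, against 569 to 714 in vehicle tumours.

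Of the 7 melanocytic markers, Tyr and Tyrp1, which encode the enzymes of pigment synthesis, were at or below 23.5 in all 12 tumours. Of the 5 tested, 4 rose, and Mitf, the lineage transcription factor, rose by 0.89 ± 0.07. The summed levels of the 7 overlapped, at 9000 to 11081 in vehicle and 9602 to 12968 in NRAS-off tumours. The highest sum was in NRAS-off replicate 2, against at most 12438 in the other NRAS-off tumours. Markers of several host cell types were higher in NRAS-off tumours. All 9 macrophage markers rose, with a summed level of 16968 to 27330 in vehicle and 42282 to 59905 in NRAS-off tumours. All 9 skeletal muscle markers rose (3364 to 16826 against 31632 to 49871). All 6 endothelial markers rose as well (601 to 1130 against 1519 to 2132). So did both tested Schwann cell markers (3499 to 4755 against 7571 to 10912). Of 7 fibroblast markers 6 rose and 1 fell (72048 to 87315 against 169138 to 197493). Of 4 adipocyte markers 2 rose, and their sums did not overlap (956 to 3027 against 4938 to 8484). Of 5 T cell markers 4 rose and of 5 B and plasma cell markers 3 rose, with sums that overlapped (289 to 384 against 357 to 1573, and 595 to 3620 against 676 to 7922). Of 2 tested NK cell markers 1 rose and 1 fell, with sums of 124 to 209 against 176 to 962. Of 5 pericyte markers 3 rose and 1 fell, of 6 mast cell markers 3 rose, and of 4 neutrophil markers 1 rose. Their sums overlapped (10506 to 13230 against 11258 to 12720, 913 to 1732 against 1355 to 2365, and 798 to 3211 against 919 to 14119). The highest neutrophil sum was in NRAS-off replicate 2, against at most 5246 in the other NRAS-off tumours. The array reads mixed tissue, so fewer cells of a type and less RNA per cell cannot be told apart in any value given here.

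The change reached most of the transcriptome. Of 15005 genes, 8899 (59.3%) passed an adjusted p of 0.05 in limma, 4772 (31.8%) rising and 4127 (27.5%) falling, and these shares are the background for every count that follows. A gene is said to rise or fall only where it passed, and changes are log2 differences ± SE with 6 tumours per group. A change of at least 2-fold was found for 942 risers (6.28%) and 633 fallers (4.22%), and in 5868 called genes (39.1%) the tumours of the groups did not overlap. Without NRAS-off replicate 2 the counts were 4661 and 4073. Which direction had more genes depended on scaling: median centring gave 4367 rises and 4634 falls, and quantile normalization 4674 and 4307.

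The shares of rises and falls differed by level, which is given as a description. In the lowest decile of genes, at intensities of 23.5 to 34.7, 11.4% rose and 9.46% fell. Rises were most frequent in the fourth decile (106.5 to 193.8), where 39.7% rose and 26.4% fell. In the highest decile, from 2106 to 38944, the order was turned, with 30.7% rising and 40.2% falling. The median size of the change was 0.08 in the lowest decile, 0.35 in the fourth and 0.28 in the highest. The groups were similarly even within themselves: the median SD between tumours was 0.13 for vehicle and 0.12 for NRAS-off on the log2 scale, and 45.1% of genes had the larger SD in NRAS-off tumours. Long non-coding RNAs, read at a median of 43.5 in vehicle tumours against 341 for protein-coding genes, were counted apart. Of 692, 143 rose (20.7%) and 105 fell (15.2%), against 32.5% and 28.2% of 14096 protein-coding genes. In the second decile of all genes, at intensities of 34.7 to 58.3, 19.9% rose and 13.6% fell. The difference between long non-coding and protein-coding genes, and the part of level in it, was not tested.

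**Figure D1:**
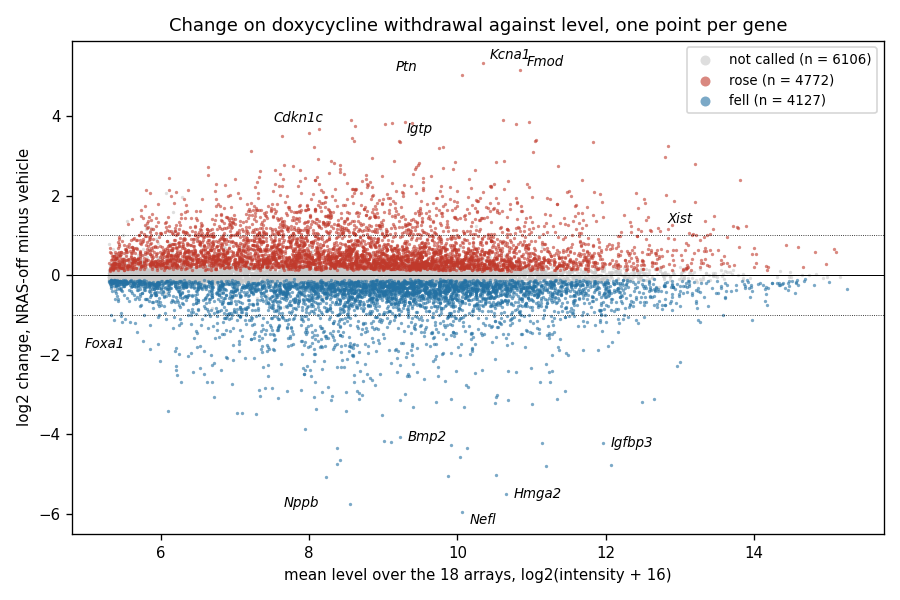
Log2 change of each of the 15005 genes (vertical axis) against its mean level over the 18 arrays, log2(intensity + 16) (horizontal axis). Red points rose (4772), blue points fell (4127) and grey points were not called, and dotted lines mark a 2-fold change. The largest falls, down to Nefl, exceed the largest rises, up to Kcna1.

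The genes at both ends of the ranking were separated by far more than the spread between tumours. Nefl, a neurofilament subunit of nerve cells, had the largest fall. Its intensity ran from 6299 to 7368 (median 6627) in vehicle and from 58.3 to 134 (median 91.7) in NRAS-off tumours. Kcna1, a voltage-gated potassium channel, had the largest rise, and ran from 69.6 to 178 (median 123) in vehicle and from 4205 to 6283 (median 5468) in NRAS-off tumours. In each of the 20 largest falls and 20 largest rises the groups did not overlap, as the choice of these genes required.

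Falls at ranks 11 to 20 included a phosphatase of ERK, an AP-1 subunit and secreted proteins. Dusp4, a phosphatase that removes phosphate from ERK, ran from 4295 to 6040.3 (median 5662) in vehicle and from 136 to 329 (median 218) in NRAS-off tumours, a fall of 4.57 ± 0.17 (limma adjusted p = 2.31e-13). Fosl1, which encodes the AP-1 subunit FRA1, ran from 817 to 1256 (median 982) in vehicle and from 29.5 to 73.4 (median 55.5) in NRAS-off tumours, a fall of 3.87 ± 0.16 (limma adjusted p = 4.28e-13). For both genes every vehicle tumour was many times above every NRAS-off tumour. Among secreted proteins, Igfbp3, a carrier of insulin-like growth factors, ran from 14223 to 19221 (median 16145) in vehicle and from 679 to 1213 (median 794) in NRAS-off tumours. It fell by 4.23 ± 0.13 (limma adjusted p = 1.20e-14). Bmp2, a ligand of the TGF-beta superfamily, ran from 2193 to 4139 (median 3435) in vehicle and from 141 to 204 (median 188) in NRAS-off tumours and fell by 4.07 ± 0.14. Dlk1, a membrane protein with EGF repeats related to NOTCH ligands, ran from 5345 to 10327 (median 8320.0) in vehicle and from 265 to 553 (median 442) in NRAS-off tumours and fell by 4.23 ± 0.19. The highest NRAS-off tumour of each of these 3 genes was far below the lowest vehicle tumour.

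Upp1, uridine phosphorylase of pyrimidine salvage, had one of the tightest separations. It ran from 4267 to 5115 (median 4456) in vehicle and from 181 to 270.0 (median 227) in NRAS-off tumours and fell by 4.27 ± 0.12 (limma adjusted p = 7.58e-15). Nefm, the partner of Nefl in neurofilaments, ran from 1469 to 1855 (median 1731) in vehicle and from 54.2 to 89.6 (median 63.3) in NRAS-off tumours and fell by 4.34 ± 0.15. S100a3, a calcium-binding protein, ran from 4328 to 7538 (median 5768) in vehicle and from 194 to 451 (median 245) in NRAS-off tumours and fell by 4.34 ± 0.19. Neither gene had an NRAS-off tumour near the vehicle range. Tnnt2, the troponin T of heart muscle, ran from 1743 to 4166 (median 2169) in vehicle and from 65.4 to 204 (median 133) in NRAS-off tumours and fell by 4.21 ± 0.25, while the skeletal muscle markers above rose. Lbhd2 completed the ranks and ran from 1102 to 2965 (median 1577) in vehicle and from 69.2 to 99.8 (median 78.7) in NRAS-off tumours, a fall of 4.17 ± 0.19.

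Rises at ranks 11 to 20 included 3 genes of the extracellular matrix. Ogn, a small matrix proteoglycan, ran from 209 to 836 (median 565) in vehicle and from 4849.7 to 8855 (median 7162) in NRAS-off tumours and rose by 3.79 ± 0.25 (limma adjusted p = 2.97e-10). Mfap4, a glycoprotein of elastic microfibrils, ran from 42.3 to 114 (median 62.4) in vehicle and from 694 to 1359 (median 945) in NRAS-off tumours and rose by 3.56 ± 0.21. Matn2, a matrix adaptor protein, ran from 481 to 729 (median 613) in vehicle and from 5897 to 6937 (median 6522) in NRAS-off tumours and rose by 3.38 ± 0.08, with the smallest SE of the 20. In all 3 the lowest NRAS-off tumour was several times the highest vehicle tumour, and for Matn2 the tumours lay close together within both groups. Of 7 fibroblast markers, a class to which such matrix genes belong in normal tissue, 6 rose in the same tumours. Their part in these rises was not tested.

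Cdkn1c, which encodes the CDK inhibitor p57, ran from 117 to 151 (median 126) in vehicle and from 954 to 2909.7 (median 1938) in NRAS-off tumours and rose by 3.76 ± 0.19 (limma adjusted p = 7.60e-12). Ugt8a, the enzyme that makes the galactolipids of myelin, ran from 37.1 to 82.4 (median 68.8) in vehicle and from 696 to 1388 (median 1008) in NRAS-off tumours and rose by 3.69 ± 0.21. Lpl, lipoprotein lipase, ran from 560.2 to 1083 (median 786) in vehicle and from 6577 to 11664 (median 8678) in NRAS-off tumours and rose by 3.40 ± 0.20. In each case the lowest NRAS-off tumour was several times the highest vehicle tumour. The adipocyte markers moved with Lpl, which fat cells also express, and their part was not tested. Efhd1, a mitochondrial calcium-binding protein, ran from 52.6 to 82.9 (median 72.2) in vehicle and from 801 to 1142 (median 904) in NRAS-off tumours and rose by 3.46 ± 0.13. Fmo1, a flavin monooxygenase, ran from 81.7 to 169 (median 126) in vehicle and from 1091 to 1803 (median 1338) in NRAS-off tumours and rose by 3.38 ± 0.16. Scrg1 ran from 48.2 to 72.8 (median 59.5) in vehicle and from 479.6 to 1280.0 (median 880.3) in NRAS-off tumours and rose by 3.51 ± 0.20. These 3 were near or not far above the median signal of the arrays in vehicle tumours and well above it after withdrawal. Igtp, an interferon-inducible GTPase, was the most variable of these 10 and ran from 117 to 396 (median 188) in vehicle and from 1003 to 7395 (median 2511) in NRAS-off tumours. It rose by 3.37 ± 0.55 (limma adjusted p = 2.97e-05), and without NRAS-off replicate 2 by 3.61.

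**Figure D2:**
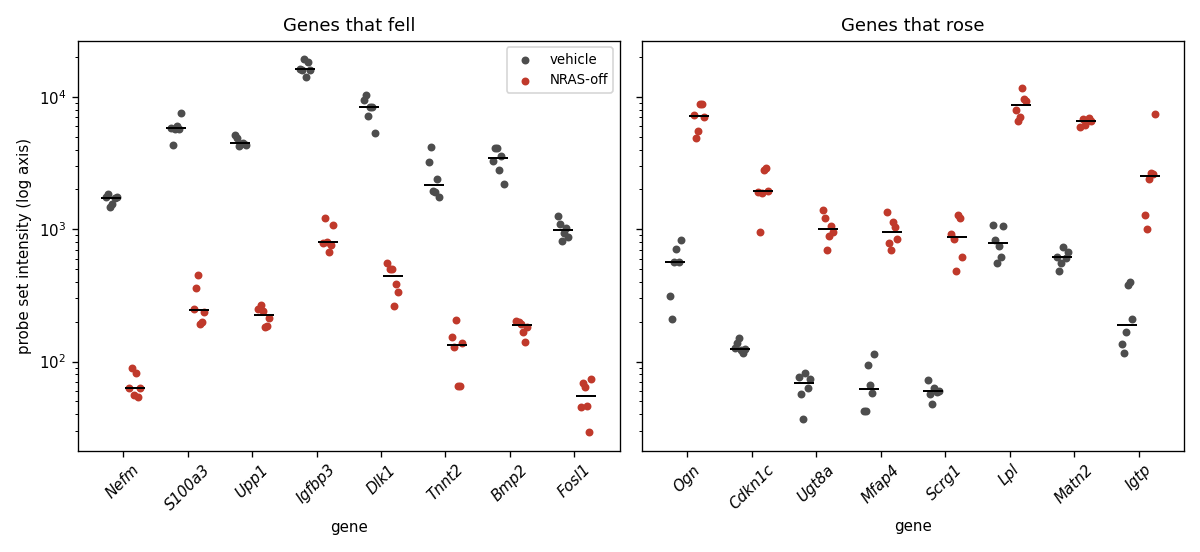
Probe set intensity (log axis) of 8 genes that fell and 8 that rose, 1 point per tumour, with 6 vehicle (grey) and 6 NRAS-off (red) tumours per gene and a black bar at the median. The groups do not overlap for any gene shown, and Igtp has the widest spread among NRAS-off tumours.

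All 20 of the largest falls were also lower, and all 20 of the largest rises higher, than in the MEK inhibitor tumours (limma, NRAS-off minus MEK inhibitor), but they were chosen on the same NRAS-off tumours. Over all genes this contrast called 7052 (47%), 3652 higher and 3400 lower in NRAS-off tumours. Another scaling turned the order, to 3290 higher and 3913 lower with median centring and to 3500 and 3654 with quantile normalization. Cdkn1c was higher than in MEK inhibitor tumours by 3.21 ± 0.19, Lpl by 2.60 ± 0.20 and Matn2 by 1.48 ± 0.08.

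The promoter sequences of genes at both ends were read for short motifs, because motifs are where transcription factors of these pathways bind. RefSeq windows of 250 bases before to 50 after the start (build GRCm38.p6, both strands) were matched by symbol for 11995 tested genes. The letters GAAANNGAAA, a core shared by interferon response sites, occurred in 56 of 706 promoters of genes that rose at least 2-fold (7.93%). The shares were 4.31% of 487 promoters of genes that fell at least 2-fold, 2.50% of 4889 of genes not called, and 3.49% of all 27025 promoters. Igtp, Calhm6 and Irgm2 are shown because they rose strongly and hold this motif, in capitals, 34, 64 and 64 bases before the start. The windows of Igtp and Irgm2 share long stretches of sequence around the motif, so they are not separate examples of it. The Igtp window is chr11:58199306-58199605 on the plus strand, that of Calhm6 is chr10:34127923-34128222 on the minus strand and that of Irgm2 is chr11:58214727-58215026 on the plus strand.
Igtp: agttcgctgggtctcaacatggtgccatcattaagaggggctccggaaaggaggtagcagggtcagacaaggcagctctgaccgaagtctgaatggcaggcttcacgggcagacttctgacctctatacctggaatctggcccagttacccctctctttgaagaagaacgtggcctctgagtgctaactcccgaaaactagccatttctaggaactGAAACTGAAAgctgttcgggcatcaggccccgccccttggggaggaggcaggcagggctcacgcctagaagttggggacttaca
Calhm6: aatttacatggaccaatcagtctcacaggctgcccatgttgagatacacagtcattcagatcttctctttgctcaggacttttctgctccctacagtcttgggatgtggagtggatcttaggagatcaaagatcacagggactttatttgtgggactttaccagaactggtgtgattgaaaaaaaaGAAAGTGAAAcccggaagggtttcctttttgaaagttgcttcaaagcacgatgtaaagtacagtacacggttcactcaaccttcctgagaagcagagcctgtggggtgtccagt
Irgm2: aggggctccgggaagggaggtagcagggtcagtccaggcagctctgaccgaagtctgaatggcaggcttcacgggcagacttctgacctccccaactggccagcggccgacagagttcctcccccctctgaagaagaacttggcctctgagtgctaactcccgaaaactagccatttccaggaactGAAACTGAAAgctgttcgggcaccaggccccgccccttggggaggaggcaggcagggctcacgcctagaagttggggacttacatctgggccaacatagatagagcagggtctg

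Calhm6, a calcium homeostasis modulator family member, ran from 31.5 to 78.4 (median 63.5) in vehicle and from 362 to 1692 (median 564) in NRAS-off tumours and rose by 3.12 ± 0.29 (limma adjusted p = 2.77e-08). Irgm2, a GTPase of the same family as Igtp, ran from 104 to 222 (median 131) in vehicle and from 468 to 3206 (median 1166) in NRAS-off tumours and rose by 2.76 ± 0.42 (limma adjusted p = 1.21e-05). In both the NRAS-off tumours were all above the vehicle tumours, over a wide range. Igtp, Calhm6 and Irgm2 were highest in NRAS-off replicate 6, the tumour with the highest summed T cell, NK cell and macrophage markers, whose part was not tested. Without that tumour Igtp rose by 3.04, Calhm6 by 2.85 and Irgm2 by 2.45. The probe sets of these GTPases were not checked for matches to other members of the family.

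Among genes that fell at least 2-fold, the letters TTGGCGC, found in E2F sites, were in 6.57% of promoters, against 3.12% of those that rose and 3.89% of those not called (2.54% of all promoters). TTTGAA, the core of the CHR element of cell cycle genes, was in 18.5%, 16.1% and 11.8% (18.1% of all). TGACTCA, the AP-1 site, was in 6.16%, 5.24% and 4.40% (5.17% of all). CCAAT was in 41.9%, 36.8% and 37.7% (37.9% of all), CACGTG in 8.01%, 8.78% and 9.0% (7.24% of all), and TGACGTCA in 3.70%, 1.13% and 2.82% (1.88% of all). No motif contains another, though neighbouring matches can share bases, as CCAAT and the reverse of TTGGCGC can. The promoters below hold the AP-1 letters (Upp1 and Mmp1a, 45 and 73 bases before the start) or the E2F letters (Phlda2 and Elovl6, 196 and 168 bases before), in capitals, and belong to genes with strong falls. Their windows are chr11:9117758-9118057 (plus), chr9:7463891-7464190 (plus), chr7:143502475-143502774 (minus) and chr3:129532136-129532435 (plus).
Upp1: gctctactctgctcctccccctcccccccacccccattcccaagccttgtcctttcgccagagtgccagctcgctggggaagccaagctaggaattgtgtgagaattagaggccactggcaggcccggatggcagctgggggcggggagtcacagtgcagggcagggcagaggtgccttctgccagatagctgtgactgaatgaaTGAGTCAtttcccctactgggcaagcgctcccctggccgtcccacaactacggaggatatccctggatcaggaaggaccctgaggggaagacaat
Mmp1a: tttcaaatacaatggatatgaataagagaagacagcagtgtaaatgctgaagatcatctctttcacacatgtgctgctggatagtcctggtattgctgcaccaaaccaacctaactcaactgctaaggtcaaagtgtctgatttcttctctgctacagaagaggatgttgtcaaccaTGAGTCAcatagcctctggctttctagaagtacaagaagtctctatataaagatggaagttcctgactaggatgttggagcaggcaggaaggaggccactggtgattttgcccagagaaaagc
Phlda2: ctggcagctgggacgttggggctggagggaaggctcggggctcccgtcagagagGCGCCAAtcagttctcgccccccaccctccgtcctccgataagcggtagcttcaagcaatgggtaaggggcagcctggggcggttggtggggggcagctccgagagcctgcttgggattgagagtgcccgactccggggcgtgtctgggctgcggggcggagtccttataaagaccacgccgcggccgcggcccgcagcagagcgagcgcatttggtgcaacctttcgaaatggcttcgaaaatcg
Elovl6: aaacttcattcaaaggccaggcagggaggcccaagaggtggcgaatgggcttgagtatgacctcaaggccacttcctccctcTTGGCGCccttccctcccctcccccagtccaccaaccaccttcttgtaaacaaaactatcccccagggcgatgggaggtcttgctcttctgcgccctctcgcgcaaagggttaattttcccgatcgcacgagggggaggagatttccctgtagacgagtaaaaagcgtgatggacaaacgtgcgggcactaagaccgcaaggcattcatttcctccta

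Phlda2, an imprinted growth regulator, ran from 443 to 628 (median 562) in vehicle and from 26.3 to 40.6 (median 37.04) in NRAS-off tumours and fell by 3.46 ± 0.12 (limma adjusted p = 4.82e-14). Elovl6, a fatty acid elongase, ran from 1167 to 1465 (median 1283) in vehicle and from 158 to 203 (median 179) in NRAS-off tumours and fell by 2.76 ± 0.09 (limma adjusted p = 3.34e-14). The groups were far apart in both. A match in these windows is a description of letters, not a site.

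Gene families were then read whole, as 97 families and pathways. All 20 cytosolic aminoacyl-tRNA synthetases, the enzymes that load amino acids onto tRNA, fell (background 27.5%), by log2 changes of −0.23 to −1.15 with a median change of −0.75. Farsb, a subunit of the phenylalanine enzyme, ran from 1216 to 1547 (median 1459) in vehicle and from 593 to 707 (median 624) in NRAS-off tumours and fell by 1.15 ± 0.07 (limma adjusted p = 8.07e-11). Gars, the glycine enzyme, ran from 2846 to 3054 (median 2953) in vehicle and from 1329 to 1606 (median 1455) in NRAS-off tumours and fell by 1.02 ± 0.05. Rars, the arginine enzyme, ran from 2714 to 2896 (median 2797) in vehicle and from 1213 to 1525 (median 1427) in NRAS-off tumours and fell by 1.01 ± 0.06. The tumours of the groups were fully apart in all 3, although each change was close to 2-fold. Of the 15 tested genes listed as mitochondrial synthetases, 5 fell and 2 rose, with a median of −0.11.

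Of the 9 subunits of CCT, the ring chaperonin that folds actin and tubulin, 8 fell and none rose (median −0.59). Cct7 ran from 5008 to 5635 (median 5234) in vehicle and from 2623 to 3099.6 (median 2893) in NRAS-off tumours and fell by 0.88 ± 0.05. Tcp1 ran from 5117 to 6526 (median 5727) in vehicle and from 2865 to 3596 (median 3291) in NRAS-off tumours and fell by 0.84 ± 0.07. Cct2 fell by 0.75 ± 0.05. Tubulins, which CCT folds, had 8 falls and 3 rises among 15 (median −0.30): Tubb5, a beta-tubulin, fell by 0.82 ± 0.06 and Tubg1, which seeds microtubules at centrosomes, fell by 0.98 ± 0.07, while Tuba4a rose by 1.19 ± 0.21 with overlapping groups. Heat shock proteins were mixed, with 25 falls and 17 rises among 72. Hspa4, a nucleotide exchange factor for HSP70, fell by 0.90 ± 0.06, and the small heat shock protein Hspb6 of muscle rose by 1.35 ± 0.18.

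Most tested genes of nuclear transport and of protein import into mitochondria fell. Of 26 nucleoporins, the subunits of the nuclear pore, 20 fell and 1, Nup210, rose (median −0.39). Nup37 ran from 1409 to 1574 (median 1459.9) in vehicle and from 422 to 607 (median 499) in NRAS-off tumours and fell by 1.499 ± 0.09 (limma adjusted p = 3.80e-11). Nup43 fell by 1.02 ± 0.08 and Ndc1, which anchors the pore in the membrane, by 0.83 ± 0.08. Of 28 importins and exportins, the carriers that pass through the pore, 22 fell and 2 rose (median −0.38), with Kpna2 down by 1.09 ± 0.09, Ipo5 down by 0.93 ± 0.08 and Ipo7 down by 0.92 ± 0.06. Among 39 SLC25 mitochondrial carriers 13 rose and 14 fell (median 0.003). Of 26 genes for protein import into mitochondria, 19 fell and 2 rose (median −0.36). Tomm70a, a receptor of the outer membrane, ran from 1768 to 2071 (median 1979) in vehicle and from 871 to 1018 (median 907) in NRAS-off tumours and fell by 1.07 ± 0.05, Timm8a1, a chaperone between the membranes, fell by 0.95 ± 0.08, and the import pore gene Tomm40 fell by 0.78 ± 0.06.

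Falls outnumbered rises in the following families of RNA and nucleotide synthesis and RNA processing. Of 25 RNA polymerase subunits 16 fell and 2 rose (median −0.22), the largest in Polr3g (−0.85 ± 0.13), a subunit of polymerase III, and in the polymerase I subunits Polr1c (−0.78 ± 0.08) and Polr1a (−0.75 ± 0.07). Of 20 enzymes of purine and pyrimidine synthesis 13 fell and 1, Ctps2, rose (median −0.29): Adss, of AMP synthesis, fell by 0.79 ± 0.08, Umps, of UMP synthesis, by 0.74 ± 0.06 and Ctps, CTP synthase, by 0.71 ± 0.09. Of 42 spliceosomal snRNP and LSM proteins 24 fell and 6 rose (median −0.17), with Lsm8 down by 1.02 ± 0.08 and Snrpf by 0.69 ± 0.06. Splicing regulators of the SRSF and HNRNP families were nearer the background, 10 falling and 6 rising of 28. Of 30 Mediator subunits 13 fell and 5 rose, the largest fall being Med14 (−1.25 ± 0.10).

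Feedback families of the RAS pathway were uneven. Of 6 tested Sprouty and Spred genes 5 fell, all at least 2-fold (median −1.63). Spry4 ran from 427 to 773 (median 471) in vehicle and from 35.9 to 68.7 (median 50.9) in NRAS-off tumours and fell by 3.05 ± 0.15, Spred2 fell by 1.74 ± 0.09, and the remaining member changed by 0.05. Of 23 dual specificity phosphatases 11 fell, 5 of them at least 2-fold, and 6 rose by up to 0.81, so that the family median was −0.02 (−0.09 to −0.02 over the alternatives). Dusp5, which acts on nuclear ERK, ran from 985 to 2508 (median 1416) in vehicle and from 205 to 272 (median 241) in NRAS-off tumours and fell by 2.59 ± 0.17. Among 36 genes of all mitogen-activated cascades 12 rose and 9 fell. Map2k3, a kinase above p38, fell by 1.26 ± 0.06, Mapk12, a p38 isoform of muscle, rose by 1.43 ± 0.16, and Map3k8 rose by 1.38 ± 0.12. Braf changed by 0.01 ± 0.06 (limma adjusted p = 0.856), but passed as a rise with the mean of its probe sets (0.13) and with the most variable one (0.28). The mouse Nras probe set fell by 0.28 ± 0.05. The labels do not say whether it reads the inducible gene.

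**Figure D3:**
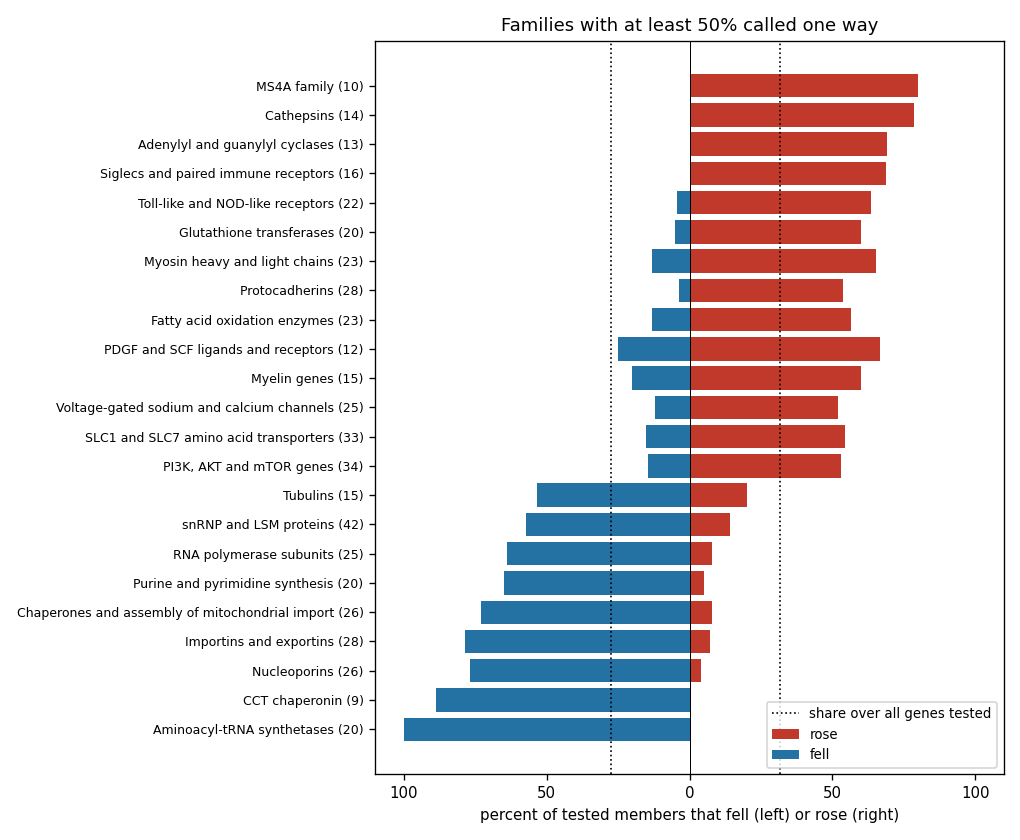
Percent of tested members that rose (red, to the right) or fell (blue, to the left) in the 23 families with at least 8 tested members and at least 50% called one way, with the number tested in brackets. Dotted lines mark the shares over all genes tested, 31.8% and 27.5%. The aminoacyl-tRNA synthetases reach 100% fallen, and the MS4A family has 80% risen and none fallen.

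Most tested members of several immune cell families rose, in tumours whose macrophage markers also rose (summed levels given above, their part in the result not tested). Of 10 tested MS4A genes, membrane proteins of leukocytes, 8 rose (median 0.78, and 0.06 with members under the signal filter included; background 31.8%). Ms4a7, of macrophages, ran from 992 to 1594 (median 1172) in vehicle and from 2969.7 to 5266 (median 3397) in NRAS-off tumours and rose by 1.60 ± 0.27. Of 14 cathepsins, the proteases of lysosomes, 11 rose and none fell (median 0.84). Ctsf ran from 291 to 355 (median 301) in vehicle and from 784 to 1019.5 (median 924) in NRAS-off tumours and rose by 1.48 ± 0.08, Ctse rose by 1.33 ± 0.21, Ctsk, the collagen-degrading enzyme of osteoclasts, rose by 1.27 ± 0.24, and Ctss, of antigen-presenting cells, rose by 1.14 ± 0.29. The abundant Ctsb rose by only 0.30 ± 0.05, yet its groups did not overlap, 15444 to 17141 against 18763 to 22026. Of 16 Siglecs and paired immune receptors 11 rose (median 0.67), with Cd300a (1.98 ± 0.15) and Cd22 (1.65 ± 0.13) ahead. Of 22 Toll-like and NOD-like receptors 14 rose and 1, Nlrp6, fell (median 0.41, and 0.03 with no filter). Nlrc5, an activator of MHC class I genes, ran from 77.2 to 147 (median 94.02) in vehicle and from 334 to 1149.8 (median 498) in NRAS-off tumours and rose by 2.23 ± 0.32. Tlr1 rose by 1.27 ± 0.14 and Tlr7, a sensor of single-stranded RNA, by 1.26 ± 0.19.

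Interleukins and their receptors went both ways. Of 44 tested, 20 rose and 6 fell (median 0.36, and 0.03 with no filter). Il1rap, a shared chain of IL-1 receptors, ran from 3298 to 4506 (median 4058) in vehicle and from 632 to 1028 (median 689) in NRAS-off tumours and fell by 2.34 ± 0.13. Il11 fell by 1.82 ± 0.14, and Il7r rose by 1.73 ± 0.21. In the TNF superfamily 13 of 33 rose and 6 fell, yet the changes past 2-fold downward were in Tnfsf11, which encodes RANKL (−2.53 ± 0.34), and Tnfrsf12a, the TWEAK receptor (−2.43 ± 0.19).

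Rises outnumbered falls among myosins, myelin genes, fatty acid oxidation enzymes and glutathione transferases. Of 23 myosin chains 15 rose and 3 fell (median 0.86, and 0.31 with no filter). Myh1, a fast skeletal myosin, ran from 169 to 2408 (median 1180.4) in vehicle and from 9117 to 10609 (median 9831) in NRAS-off tumours and rose by 3.35 ± 0.42. Myh4 rose by 2.68 ± 0.71 but its groups overlapped. Myl9, of smooth muscle, rose by 2.27 ± 0.17. The skeletal muscle markers moved with these genes, while the sums of the pericyte markers overlapped. The part of either was not tested. Of 15 myelin genes 9 rose and 3 fell (median 0.50, and 0.24 with no filter). Mbp, myelin basic protein, ran from 101 to 873 (median 173) in vehicle and from 397 to 1990.1 (median 1118) in NRAS-off tumours and rose by 2.20 ± 0.51, with overlap. Of 23 enzymes of fatty acid oxidation 13 rose and 3 fell (median 0.23), none by 2-fold, in tumours whose adipocyte and muscle markers were also higher (not tested). Cpt1a, which gates entry of fatty acids into mitochondria, ran from 540.4 to 801 (median 596) in vehicle and from 1113 to 1198 (median 1174) in NRAS-off tumours and rose by 0.90 ± 0.07, Ehhadh of peroxisomes by 0.69 ± 0.10 and Hadhb by 0.65 ± 0.07. Of 20 glutathione transferases 12 rose and 1 fell (median 0.50, and 0.20 with no filter): Gstm2 rose by 1.67 ± 0.12 and Gstt1 by 1.65 ± 0.07, and the microsomal Mgst2 fell by 1.80 ± 0.19.

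Rises also outnumbered falls in the following signal and surface families. None of 13 adenylyl and guanylyl cyclases fell and 9 rose (median 0.30, range over the alternatives 0.18 to 0.44). Gucy1a1 and Gucy1b1, the subunits of the nitric oxide receptor, rose by 1.57 ± 0.20 and 0.84 ± 0.13. Of 34 PI3K, AKT and mTOR genes 18 rose and 5 fell (median 0.22, and 0.08 with the mean of each gene's probe sets). Deptor, which binds and restrains mTOR, ran from 328 to 517 (median 419) in vehicle and from 1368 to 1793 (median 1516) in NRAS-off tumours and rose by 1.86 ± 0.10 (limma adjusted p = 9.86e-12). Sesn3, a stress-induced inhibitor of mTORC1, ran from 328 to 474 (median 424) in vehicle and from 1361 to 1610.5 (median 1490.5) in NRAS-off tumours and rose by 1.82 ± 0.08. Pik3cb, a catalytic subunit of PI3K, ran from 276 to 420.1 (median 330.5) in vehicle and from 70.1 to 92.04 (median 82.3) in NRAS-off tumours and fell by 1.85 ± 0.08. The 3 genes were apart in every tumour, the inhibitors up and this catalytic subunit down. Of 28 protocadherins 15 rose and 1 fell (median 0.29, and 0.16 with no filter), with Pcdh17 up by 1.62 ± 0.15 and Pcdhb9 by 1.56 ± 0.11. Pcdh18 was the member that fell, by 1.26 ± 0.08. Of 31 semaphorins and plexins, guidance ligands and their receptors, 14 rose and 7 fell. Sema4f ran from 174 to 351 (median 205) in vehicle and from 1088 to 1952 (median 1751) in NRAS-off tumours and rose by 2.76 ± 0.16, and the receptor Plxnc1 rose by 2.24 ± 0.15.

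A large family, 311 zinc finger genes named Zfp, many of them DNA-binding repressors, showed many small rises. It had 150 rises (48.2%) and 40 falls (12.9%) with a median of 0.15, and its median was between 0.11 and 0.16 over the alternatives tried. Only 7 rises and 3 falls reached 2-fold. Zfp423 ran from 29.1 to 55.9 (median 44.00) in vehicle and from 156 to 244 (median 213) in NRAS-off tumours and rose by 1.93 ± 0.11. Zfp703 ran from 1526 to 1924 (median 1784) in vehicle and from 593 to 780.5 (median 725) in NRAS-off tumours and fell by 1.31 ± 0.07. Both were separated in every tumour, in opposite directions.

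Some families were split, and a median near 0 hid large changes. Of 20 IGF and insulin genes 8 rose and 8 fell, with Igfbp3 at the bottom and Igfbp6 up by 2.12 ± 0.25. Igfbp2 fell by 2.40 ± 0.46, and ran from 72.8 to 1530.1 (median 178) in vehicle and from 20.9 to 43.3 (median 26.9) in NRAS-off tumours, a wide range among vehicle tumours. Fibulins, fibrillins and elastin had a median of 0.04 (0.01 to 0.05 over the alternatives), yet 9 of 20 rose, all at least 2-fold, and 5 fell. Mfap2 rose by 2.64 ± 0.13 and Eln, elastin, by 2.41 ± 0.25. The aldehyde and alcohol dehydrogenases were not split in this way: of 21, 9 rose and 1 fell (median 0.12, and 0.07 to 0.18 over the alternatives). Aldh1a1 ran from 20.5 to 130.0 (median 49.5) in vehicle and from 195 to 875 (median 367) in NRAS-off tumours and rose by 2.63 ± 0.32. Aldh1a3, which makes the same product, retinoic acid, ran from 4143 to 6490.2 (median 5141) in vehicle and from 470.4 to 792 (median 553) in NRAS-off tumours and fell by 3.13 ± 0.14. These relatives moved in opposite directions, with no overlap between the groups in either.

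Developmental pathways held changes in both directions, and the shares of rises and falls among nuclear receptors, forkhead factors and HOX genes were near the background of 31.8% and 27.5%. In the Hedgehog pathway 5 of 12 rose and 3 fell. Dhh, a ligand made by Schwann cells, ran from 1145 to 2960.4 (median 1694) in vehicle and from 171 to 264 (median 199) in NRAS-off tumours and fell by 3.00 ± 0.18, the receptor and target Ptch1 fell by 1.33 ± 0.14, and the co-receptor Cdon rose by 1.47 ± 0.12. In the NOTCH pathway 8 of 21 rose, 1 of them at least 2-fold, and 8 fell, 4 of them at least 2-fold. The ligand Dll3 ran from 394 to 588 (median 451) in vehicle and from 42.3 to 124 (median 87.2) in NRAS-off tumours and fell by 2.30 ± 0.18, the receptor Notch4 fell by 1.48 ± 0.13 and the target Hes1 by 1.40 ± 0.08. Of 36 nuclear receptors 12 rose and 8 fell. Esr1, estrogen receptor alpha, ran from 289 to 756 (median 529.8) in vehicle and from 1536 to 2631 (median 1948) in NRAS-off tumours and rose by 2.00 ± 0.18, Rxrg rose by 1.60 ± 0.14 and Rorb fell by 2.49 ± 0.25. Among SOX factors Sox11 fell by 2.19 ± 0.17 and Sox13 rose by 0.95 ± 0.10. Forkhead factors had 8 rises and 9 falls of 31, with Foxc1 down by 1.58 ± 0.08 and Foxc2 by 1.54 ± 0.10. HOX genes had 7 rises and 6 falls of 24, and Hoxc8 rose by 1.52 ± 0.16.

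Transport and adhesion families held large changes. The share of rises was above the background of 31.8% for SLC1 and SLC7 (54.5%) and for ADAM and ADAMTS (48.5%). It was nearer the background for ABC transporters (35.1%) and receptors named Gpr or Adgr (37.7%). Of 33 SLC1 and SLC7 amino acid transporters and relatives 18 rose and 5 fell. The arginine carriers moved apart: Slc7a1 ran from 1824 to 2509.7 (median 1952) in vehicle and from 589 to 792 (median 747) in NRAS-off tumours and fell by 1.47 ± 0.09, and Slc7a2 ran from 235 to 367 (median 332) in vehicle and from 621 to 1102 (median 797) in NRAS-off tumours and rose by 1.33 ± 0.12. Among ABC transporters 13 of 37 rose and 9 fell, with no fall reaching 2-fold, and Abca9 rose by 2.35 ± 0.18 and the sterol exporter Abcg1 by 1.82 ± 0.16. Of 33 ADAM and ADAMTS proteases 16 rose and 5 fell, led by Adam23 (2.51 ± 0.22) and Adam11 (2.39 ± 0.12). Among 69 receptors named Gpr or Adgr 26 rose and 15 fell, and Gpr149 ran from 292 to 538 (median 475) in vehicle and from 18.04 to 29.9 (median 26.8) in NRAS-off tumours, a fall of 3.46 ± 0.14. Of 9 desmosome genes 4 fell and none rose. Pkp2 fell by 2.16 ± 0.09. Pkp1 fell by 2.32 ± 0.43 with overlap between the groups: NRAS-off replicate 2, the tumour with keratinocyte transcripts, stood at 1280.3 against 103 to 134 in the other 5. Without that tumour Pkp1 fell by 2.87.

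Some families read at low levels gave few calls. Median vehicle levels were 26.7 for olfactory receptors, 39.2 for keratins and 37.4 for the prolactin and pregnancy glycoprotein list. Genes at such levels are seldom called: in the lowest decile 11.4% rose and 9.46% fell, and in the second 19.9% and 13.6%. Of 13 tested olfactory receptors of 39 on the array 1, Olfr157, fell and none rose in limma, with the same counts at an unadjusted p under 0.05. Of 34 keratins 1, Krt12, fell and none rose (3 and 0 unadjusted, and 2 fell and 1 rose without NRAS-off replicate 2). Of 8 genes listed with the prolactins and pregnancy glycoproteins 1, Ceacam1, fell (1 unadjusted), and its fall was at least 2-fold. Over the 97 families, 11 had at least 50% of their tested members fallen and 15 at least 50% risen. In 27 the sign of the median changed between processing alternatives, so those medians have no direction. Leaving out NRAS-off replicate 2 changed a count in 54 families, by at most 10 genes, a check chosen after the data were seen.

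Genes too weak for the main test were examined without the filter, over all 18193 genes. Of 3188 with a mean at or below 23.5, 117 rose (3.67%) and 220 fell (6.9%) in limma, against 31.8% and 27.5% above it, and none changed by 2-fold. The split depended on scaling: median centring gave 71 rises and 458 falls and quantile normalization 155 and 145. The added 16 units compress changes at this level. Clec4b1, a C-type lectin of myeloid cells, ran from 14.6 to 18.1 (median 15.8) in vehicle and from 27.6 to 72.5 (median 32.1) in NRAS-off tumours and rose by 0.73 ± 0.12. Agtr2, the angiotensin type 2 receptor, ran from 10.2 to 12.8 (median 11.7) in vehicle and from 16.02 to 43.5 (median 24.5) in NRAS-off tumours and rose by 0.60 ± 0.13. Kcnt2, a sodium-activated potassium channel, ran from 13.5 to 21.1 (median 16.95) in vehicle and from 24.1 to 48.7 (median 36.1) in NRAS-off tumours and rose by 0.66 ± 0.11. In these genes the vehicle tumours were all near the floor of the array, and the NRAS-off tumours were above them. Other rises were in Tppp (0.70), Cntn6 (0.64) and Tmigd1 (0.60). Of the falls, Cftr, the chloride channel mutated in cystic fibrosis, ran from 23.97 to 115 (median 30.3) in vehicle and from 13.6 to 17.2 (median 15.6) in NRAS-off tumours and fell by 0.84 ± 0.20, and its highest vehicle tumour was far above the median. Fga, the fibrinogen alpha chain, ran from 18.6 to 66.5 (median 33.5) in vehicle and from 12.4 to 17.1 (median 12.6) in NRAS-off tumours and fell by 0.82 ± 0.16. Nwd2 ran from 27.4 to 44.2 (median 39.1) in vehicle and from 13.6 to 16.5 (median 15.6) in NRAS-off tumours and fell by 0.74 ± 0.08. The groups were apart in all 3. Speer4a fell by 0.52, Gm9999 by 0.50 and Snap25, a synaptic fusion protein, by 0.46, the last with overlap.

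A few genes went from a clear signal to the floor. With a low level of at most 23.5 in all 6 tumours of a group and more than 76.8 in all 6 of the other, 3 genes were off after withdrawal and none was on. Mmp1a, a mouse interstitial collagenase, ran from 153 to 626 (median 273) in vehicle and from 11.3 to 13.8 (median 12.4) in NRAS-off tumours and fell by 3.42 ± 0.21 (limma adjusted p = 8.64e-11). In MEK inhibitor tumours it ran from 11.7 to 29.0, and the NRAS-off tumours did not pass against them (limma adjusted p = 0.121). Wdr63, a dynein-associated protein of cilia, ran from 122 to 164 (median 129) in vehicle and from 16.2 to 20.1 (median 17.5) in NRAS-off tumours and fell by 2.16 ± 0.10. Foxa1, a pioneer transcription factor, ran from 84.4 to 128 (median 108) in vehicle and from 18.04 to 23.4 (median 21.2) in NRAS-off tumours and fell by 1.73 ± 0.07. Because NRAS-off values lie at the floor, these falls depend on the number added: with 1 unit the falls of Mmp1a, Wdr63 and Foxa1 were −4.43, −2.85 and −2.29, and with 64 units −2.22, −1.28 and −1.01. Foxa1 and Wdr63 were also lower than in MEK inhibitor tumours (limma, log2 differences of −0.53 and −0.56).

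Long non-coding RNAs were picked out after their values were seen. Pvt1, the neighbour of Myc, ran from 1153 to 1495 (median 1268) in vehicle and from 301 to 431 (median 369) in NRAS-off tumours and fell by 1.79 ± 0.08. Morrbid, a regulator of Bcl2l11, ran from 1118 to 1548 (median 1191) in vehicle and from 295 to 389.8 (median 341) in NRAS-off tumours and fell by 1.86 ± 0.09. Snhg6, a host of small nucleolar RNAs, ran from 2035 to 3146 (median 2814) in vehicle and from 889 to 1079.9 (median 951) in NRAS-off tumours and fell by 1.48 ± 0.09. All 3 were separated in every tumour. AW112010, an interferon-inducible transcript of immune cells, rose by 2.32 ± 0.41, and Dleu2, the host of a microRNA cluster, ran from 71.1 to 129 (median 95.7) in vehicle and from 231 to 387 (median 274) in NRAS-off tumours and rose by 1.44 ± 0.11.

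Several probe sets often read 1 gene, and they did not always give the same answer. Of 7124 genes with at least 2 tested probe sets, every probe set rose in 1016 and every one fell in 1222. In 3083 some were called and all calls went one way, in 1374 none was called, and in 429 (6.02%) 1 probe set rose while another fell. Over single probe sets the background was 27.8% rising and 28.6% falling of 27656. The difference itself was tested within each array for 21986 pairs, of which 9292 (42.3%) differed in limma, in 3968 genes. In all 429 genes with opposite calls the strongest called rise differed from the strongest called fall. That choice of pair made a difference nearly certain, so this count adds no separate support. Both sides reached 0.5 on the log2 scale in 14 of them and 1 in none.

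Neo1, the receptor neogenin, had the largest opposition. Its rising probe set ran from 454 to 725 (median 603) in vehicle and from 1401 to 1827 (median 1688) in NRAS-off tumours, a change of 1.49 ± 0.12. The falling one ran from 89.9 to 137 (median 120.1) and from 57.7 to 76.2 (median 70.4), a fall of 0.67 ± 0.10. The tumours were apart on both, and the difference was 2.16 ± 0.15 (limma adjusted p = 8.41e-10). Of its 5 probe sets 4 rose and 1 fell. The suffixes of both mark probes that may match other transcripts. For Uhrf1bp1l the rising probe set ran from 514 to 627 in vehicle and from 1039 to 1261 in NRAS-off tumours, and the falling one from 540 to 685 and from 351 to 422. Its difference was 1.61 ± 0.10.

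Hivep3, a zinc finger factor, fell by 0.82 ± 0.08 on one probe set and rose by 0.63 ± 0.10 on another. Clmn rose by 0.81 ± 0.13 on one and fell by 0.59 ± 0.10 on another. Rasal2, a GTPase activator that switches RAS off, rose by 0.58 ± 0.09 at 756 to 1005 in vehicle tumours and fell by 0.69 ± 0.11 at 32.9 to 63.0. Abce1, a ribosome recycling factor, fell by 0.76 ± 0.08 at 866 to 1022 and rose by 0.58 ± 0.10 at 13.5 to 27.4, close to the floor. Ube3a, a ubiquitin ligase, fell by 0.58 ± 0.10 at 230.2 to 298 and rose by 0.67 ± 0.11 at 38.03 to 56.8. Fbxw2 (0.58 ± 0.08 against −0.58 ± 0.07), Zfp207 (0.57 ± 0.12 against −0.68 ± 0.13) and Rbm33 (0.55 ± 0.06 against −0.61 ± 0.08) completed the 10. Where the probe sets lie on the transcripts was not analysed here, so the reads of different isoforms and of other transcripts cannot be told apart.

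**Figure D4:**
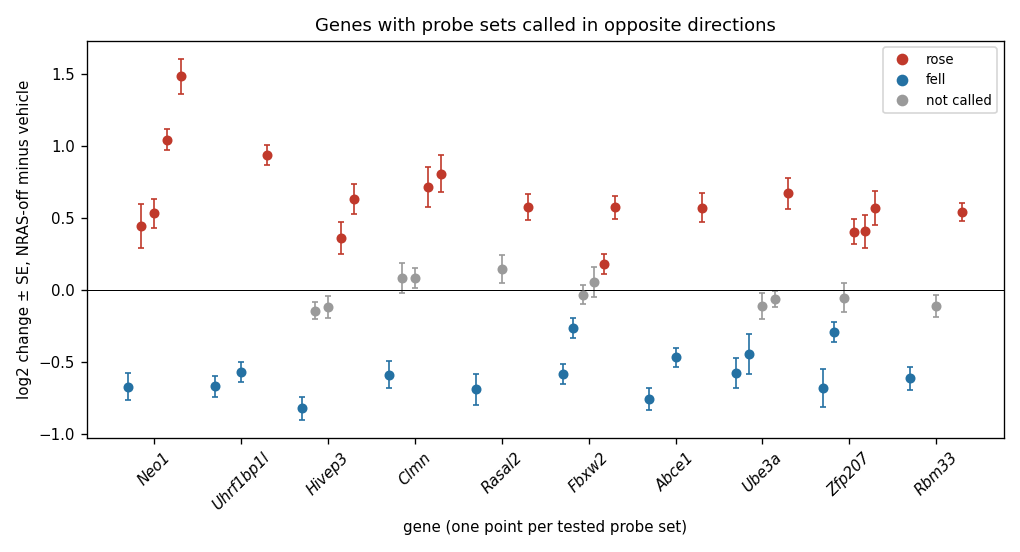
Log2 change of NRAS-off minus vehicle (vertical axis, error bars are SE, 6 tumours per group) for each tested probe set of the 10 genes with the largest opposite changes. Red points rose, blue fell and grey were not called. Every gene has points on both sides of 0, and Neo1 spans the most, 2.16.

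The choice of 1 probe set per gene also hid changes. In 360 called genes another probe set was called the other way, and 12 genes that were not called had a second probe set that changed at least 2-fold. Snx6, a sorting nexin, changed by −0.06 ± 0.10 on its strongest probe set (limma adjusted p = 0.647), while another, at 504 to 592 in vehicle and 111 to 145 in NRAS-off tumours, fell by 1.90 ± 0.08. Angptl1, an angiopoietin-like secreted protein, changed by −0.14 ± 0.07 on its strongest probe set, while another, at 16.6 to 25.2 in vehicle and 61.8 to 230 in NRAS-off tumours, rose by 1.96 ± 0.21. Armc8, a subunit of a ubiquitin ligase, changed by 0.06 ± 0.07 and by −1.29 ± 0.10. For these 3 genes the pair itself differed in limma. For Ighm, the heavy chain of IgM, it did not (limma adjusted p = 0.42), and the means of both its probe sets were higher in NRAS-off tumours. The remaining genes were Pde4dip, Asrgl1, Kctd14, Clip4, Lactb2, Gsdme, Gmfb and 2810004N23Rik.

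Transcripts of the sex chromosomes differed between the groups. Xist, the RNA that coats the inactive X chromosome of female cells, ran from 4301 to 6210.3 (median 4847) in vehicle and from 9660.1 to 11252 (median 10739.5) in NRAS-off tumours and rose by 1.12 ± 0.08 (limma adjusted p = 7.71e-10). In MEK inhibitor tumours it ran from 5577 to 7094. The Y-linked demethylase gene Kdm5d ran from 387 to 582 (median 436) in vehicle and from 231 to 288 (median 243) in NRAS-off tumours and fell by 0.83 ± 0.09, and Uty, a Y-linked relative of the demethylase UTX, ran from 184 to 261 (median 233) in vehicle and from 103 to 144 (median 129.6) in NRAS-off tumours and fell by 0.71 ± 0.10. The NRAS-off tumours were apart from the vehicle tumours in all 3. Eif2s3y, a Y-linked translation factor, fell by 0.31 ± 0.11 (limma adjusted p = 0.024) with overlap, a call that ended without vehicle replicate 4 or 5 or NRAS-off replicate 4. Both Xist and Y-linked transcripts were read in every tumour, and the host markers given above moved in the same tumours. Their part in these values was not tested.

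**Figure D5:**
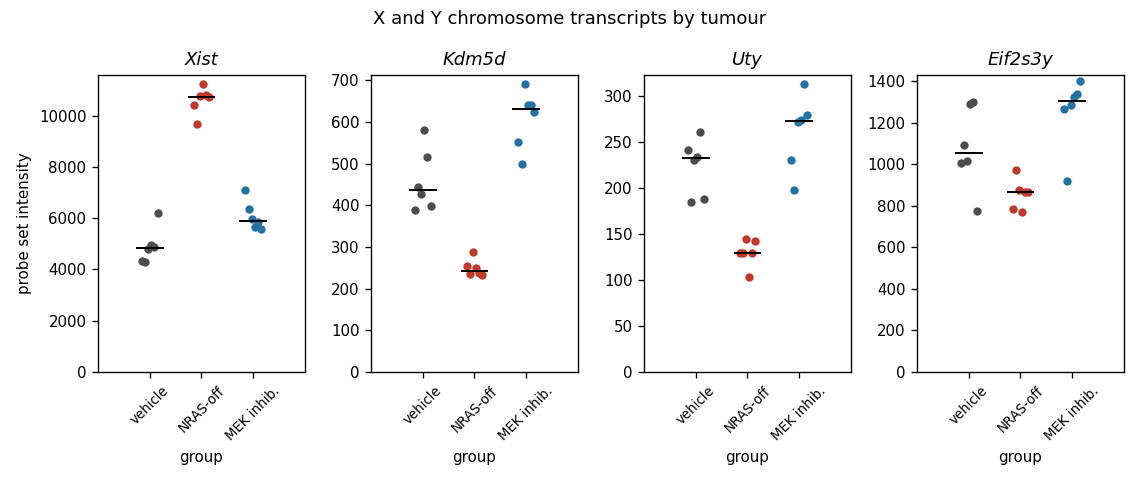
Probe set intensity (vertical axis from 0) of Xist, Kdm5d, Uty and Eif2s3y, 1 point per tumour with 6 tumours in each of the vehicle, NRAS-off and MEK inhibitor groups, and a black bar at the median. NRAS-off tumours lie above both other groups for Xist and below both for Kdm5d and Uty.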

How the data were processed

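RNA of 18 tumours was read on one-colour Affymetrix mouse arrays, with 1 array per tumour and 6 tumours per group. Pieces trimmed of skin were extracted with Trizol and labelled with biotin, per the labels' protocols. The deposited series table holds probe set intensity values that the authors had summarised and scaled. The submitters' processing notes name MAS5 and RMA without a version and without saying which made this table. It was read as linear intensity because every value is positive and array medians lie between 72.3 and 78.5; if it was made otherwise, changes are on another scale. The table carries no detection calls, so a value near the 25th percentile is treated as near background. Labels give no batch or date.

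Of the probe sets, 34945 had 1 gene symbol in the platform annotation, 932 several and 9160 no entry. Values were taken as log2(intensity + 16). Each of 18193 genes was read by the probe set with the highest mean, and genes at or below the 25th percentile (intensity 23.5) were left out, leaving 15005. One limma model (version 3.58.1, R 4.3.3) held all 3 groups (15 residual and 3.46 prior degrees of freedom), with Benjamini-Hochberg adjustment over all features tested and a threshold of 0.05. The same fit was made over 27656 probe sets, over the within-array difference of 21986 probe set pairs of 7124 genes, and over all genes with no filter. Scripts were tested on simulated data with known changes. The labels call the tumours biological replicates. Replicate numbers are shared by the groups, but deviations of tumours with the same number correlated at −0.09 to 0.16, so they were not taken as pairs.

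Named genes were the 20 largest rises and falls without overlap, up to 3 called members of each family, genes at the floor in only 1 group, the 10 genes with the largest opposite probe set changes, the 6 largest changes each way under the filter and a fixed set of pathway genes. Genes of a list that the account needs were added, and Krt14, Krt10, Calhm6, Irgm2, Phlda2, Elovl6, Pmel, Ctss and Ctsb were chosen after their values were seen, as were the long non-coding RNAs. The families, lists, motifs and members were chosen with earlier results of these data known, and genes that only matched a family's name pattern were taken out after the members were seen. Alternatives were the filter, the probe set per gene, scaling, the pseudocount, the variance prior, the groups in the fit, a replicate block, the threshold, and leaving out each tumour. Promoter windows came from RefSeq (GRCm38.p6). Plots used matplotlib 3.10.9 (Python 3.11.15).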

Additional observations from a re-analysis of the deposited data

Results flagged for a closer look

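Single tumours that stood away from the rest of their group were looked for in each of the 406 groups of 6 formed by the named genes and a treatment, by the gap to the nearest tumour as a share of the range. Chance alone gives such a tumour in about 1 in 20 groups, and 20 were found. The 20 include Krt14, Krt10, Ctss and Ctsb, which were chosen after their values were seen. The count is therefore a description and no test against chance. NRAS-off replicate 2 gave 5 of the 20: it was the highest of its group for Krt14 (6785, others 27.4 to 117), Krt10 (13003, others 416 to 454), Pkp1 (1280.3) and Mgst2 (206), and the lowest for Cyp4v3 (629). In vehicle replicate 2, Crabp1 (8433) and Cd300lb (256) were highest and Map1lc3a (4338) lowest. In vehicle replicate 6, Dusp4 (4295) was lowest, and Tlr1 (172), Gstm2 (378), Sema4f (351) and Ctss (7512) were highest. Vehicle replicate 1 was highest for Ipo7 (4580.4) and vehicle replicate 5 lowest for Cdon (239). NRAS-off replicate 5 was lowest for Gucy1a1 (636) and Cpt1a (1113), replicate 6 highest for Tomm70a (1018), replicate 3 highest for Ctsb (22026) and replicate 4 lowest for Uty (103). Leaving out the tumour concerned turned the direction of no gene named here that had passed.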

How the results depend on the processing

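Of 6418 values of named genes over the alternatives, 6354 kept their direction and side of the threshold, and no gene that passed was reversed. Angptl1, not called at −0.14, passed as a rise with the mean of its probe sets (0.65), with the most variable one (1.96) and with only the 2 groups compared (1.96), where another probe set is the strongest. A 2-fold threshold leaves 942 rises and 633 falls, 674 genes higher and 412 lower than in MEK inhibitor tumours, 1329 and 1052 probe sets, 744 pairs in 440 genes, 0 genes with opposite calls, and 0 rises and 0 falls under the level filter. An adjusted p under 0.01 leaves 218 genes with opposite calls and 64 rises and 68 falls under the filter. A filter at the 50th percentile leaves 5307 differing pairs in 2556 genes, from fewer probe sets tested, and counting genes up to that percentile as low gives 777 rises and 681 falls. Median centring gives 71 rises and 458 falls under the filter, and quantile normalization 145 falls; the cause was not tested. With the low level at the 35th percentile 6 genes were on and 10 off, and at the 15th 1 was off. Median centring moved the counts over all genes to 4367 rises and 4634 falls. A replicate block gave 4701 rises and 4027 falls, and the numbers do not pair the tumours: 1 of 6 NRAS-off tumours correlated best with its own number.

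Leaving out each tumour gave 4563 to 4836 rises, 3906 to 4188 falls, 3443 to 3670 higher and 3135 to 3437 lower than in MEK inhibitor tumours, 7310 to 7647 and 7466 to 7823 probe sets, 357 to 434 genes with opposite calls, 8475 to 9190 pairs in 3733 to 3938 genes, and 100 to 117 rises and 170 to 223 falls under the filter. Of 97 family medians, 12 moved by more than the spread between tumours with the mean of each gene's probe sets, 12 with no filter, 5 with a pseudocount of 64, 1 with a pseudocount of 1 and 1 with median centring. Braf passed with the mean of its probe sets (0.13) and with the most variable one (0.28). Map2k1 (−0.17 as reported) did not pass under quantile normalization or without any 1 of 8 tumours, nor Olfr157 with a pseudocount of 64 or without NRAS-off replicate 3 or 4. Olfr157 lay below the signal filter, and so had no value, without NRAS-off replicate 2 or without any one vehicle tumour other than replicate 4. Signal over background limits the genes near 23.5 intensity units, whose changes are compressed.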
